A study of Macaca fascicularis with 36 samples.

Results

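The genes ENSMFAG00000044843, ENSMFAG00000042429 and ENSMFAG00000035883 were followed in the frontal cortex of monkeys through every animal and library of a study of the TREM2 agonist antibody Para09, directed at the human receptor. They are 3 of the 28623 genes in the deposited tables, and they were chosen by their measured levels, which were lower than with the control antibody at both doses of Para09. That rule used these same animals and named no numeric threshold, so genes just inside or outside it cannot be listed. Other genes met the same description, and their shares are given below. The differences from the control antibody below are therefore a description of the choice and carry no test. The study held 12 cynomolgus monkeys (Macaca fascicularis), dosed into the spinal fluid (intrathecally) and sampled on day 2, with 4 animals in each of 3 groups. One group was given 200 mg/kg of anti-gD, the isotype control antibody, and the others were given Para09, either 50 mg/kg or 200 mg/kg. Each animal gave 3 libraries of bulk RNA, marked with the letters A, B and C. The sources used here do not say what the letters stand for, nor how a dose per kg applies to this route.

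TREM2 is a receptor on microglia, the resident macrophages of the brain. It pairs with the adaptor TYROBP and signals through the kinase SYK, and it is known for steering microglia toward lipid uptake, survival and a reactive state. An agonist antibody binds the receptor and triggers that signal, whereas an isotype control has the same antibody backbone without the target. Bulk cortex mixes neurons, glia and vessel cells, so a lower level of a transcript can mean fewer cells of a type or less RNA per cell, and these cannot be told apart here. The files give identifiers without gene names, and 0 of the 28623 identifiers matched the reference table of 40596 genes, so the function of the 3 genes and the cell type markers of the tissue are not described.

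Libraries held 15.1 to 37.0 M counts (M, mega), and the 3 libraries of an animal together held 54.7 to 80.3 M. The sample identifiers fall into 2 runs of numbers, called the first and second series here. Every B library belonged to the first, as did the A and C libraries of 2 animals, 1504 (anti-gD) and 5501 (Para09 200 mg/kg). Library 5501B stood apart, with counts in 15779 genes where each of the other libraries had counts in at least 17974. CPM below is a gene's count per M counts of all genes in the library or animal.

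The 3 genes differed in size and abundance. ENSMFAG00000044843 has an exonic width of 3585 bases and was the scarcest, with 21 to 146 counts in a library and more CPM than 26.3% of the 17360 genes tested. ENSMFAG00000042429 is 1964 bases wide and had 226 to 800 counts in a library. ENSMFAG00000035883 is 14097 bases wide, wider than 99.6% of the genes tested, and had 151 to 1107 counts. All 3 had counts in 36 of 36 libraries and passed the filter on low counts. Per length, on the deposited RPKM scale (reads scaled by the gene's width and by the library's depth), ENSMFAG00000042429 was the most abundant in control animals, at a level of 6.37 RPKM ± 2.25 (SD, n = 4 animals). ENSMFAG00000035883 followed at 1.22 RPKM ± 0.116 and ENSMFAG00000044843 at 0.743 RPKM ± 0.122 (SD, n = 4 animals). The highest CPM of the 3 in ENSMFAG00000035883 thus went with a low level per length.

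ENSMFAG00000044843 was lower in all 8 Para09 animals than in all 4 controls. Its level was 4.45, 4.31, 5.68 and 4.01 CPM in control animals 1501, 1502, 1503 and 1504. At 50 mg/kg it was 3.02, 2.29, 2.48 and 3.20 CPM in animals 4501, 4502, 4503 and 4504. At 200 mg/kg it was 1.82, 2.05, 2.56 and 1.62 CPM in animals 5501, 5502, 5503 and 5504. The ranges of the doses overlapped through animal 5503. The group means were 4.61 CPM ± 0.737 with anti-gD, 2.75 CPM ± 0.429 at 50 mg/kg and 2.01 CPM ± 0.405 at 200 mg/kg (SD, n = 4 animals). In the edgeR fit over all genes the level stood at 60.1% of control at 50 mg/kg (95% interval 45.0% to 80.2%) and at 43.7% at 200 mg/kg (32.6% to 58.5%). Single libraries are only described, since each animal gave 3 and the rule used these same animals. The share of all genes with a like order of libraries is not given here. The lowest control library (animal 1501, letter B) had 3.01 CPM, and 8 of 12 libraries at 50 mg/kg and 11 of 12 at 200 mg/kg lay below it.

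ENSMFAG00000042429 was lower with Para09 by an amount that depended on a single control animal. Its level was 18.6, 16.5, 33.1 and 18.7 CPM in control animals 1501, 1502, 1503 and 1504. At 50 mg/kg it was 13.7, 13.3, 16.9 and 13.9 CPM in animals 4501, 4502, 4503 and 4504, and at 200 mg/kg 14.4, 15.2, 10.4 and 11.6 CPM in animals 5501, 5502, 5503 and 5504. Animal 1503 was high in each of its libraries, at 35.0, 34.1 and 29.3 CPM for letters A, B and C, above every other library of the study. Animal 4503 overlapped the lowest control animal, and the 200 mg/kg animals all lay below the controls. The group means were 21.7 CPM ± 7.64, 14.4 CPM ± 1.67 and 12.9 CPM ± 2.28 with anti-gD, 50 and 200 mg/kg (SD, n = 4 animals). The fitted level was 67.2% of control at 50 mg/kg (95% interval 48.8% to 92.5%) and 59.6% at 200 mg/kg (43.2% to 82.1%). Without animal 1503 the log2 fold change moved from -0.57 to -0.30 at 50 mg/kg and from -0.75 to -0.48 at 200 mg/kg.

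ENSMFAG00000035883 separated the animals, while single libraries overlapped between the groups. Its level was 29.0, 32.5, 26.2 and 32.8 CPM in control animals 1501, 1502, 1503 and 1504. At 50 mg/kg it was 14.8, 16.8, 11.0 and 22.9 CPM in animals 4501, 4502, 4503 and 4504, and at 200 mg/kg 18.8, 19.1, 17.0 and 13.7 CPM in animals 5501, 5502, 5503 and 5504. All 8 Para09 animals lay below the 4 controls, and the doses overlapped fully. The group means were 30.1 CPM ± 3.10, 16.4 CPM ± 4.97 and 17.2 CPM ± 2.49 with anti-gD, 50 and 200 mg/kg (SD, n = 4 animals). The fitted level was 54.7% of control at 50 mg/kg (95% interval 41.0% to 73.2%) and 57.0% at 200 mg/kg (42.7% to 76.2%). Single libraries ranged from 18.7 to 50.7 CPM with anti-gD, from 6.92 to 29.6 CPM at 50 mg/kg and from 8.63 to 34.6 CPM at 200 mg/kg. The lowest control library (animal 1504, letter B) had 18.7 CPM, and 8 of 12 libraries at each dose lay below it. Of the 12 control libraries, 6 exceeded every 50 mg/kg library and 2 exceeded every 200 mg/kg library. How many of all genes have a like order of libraries is not given here.

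**Figure D1:**
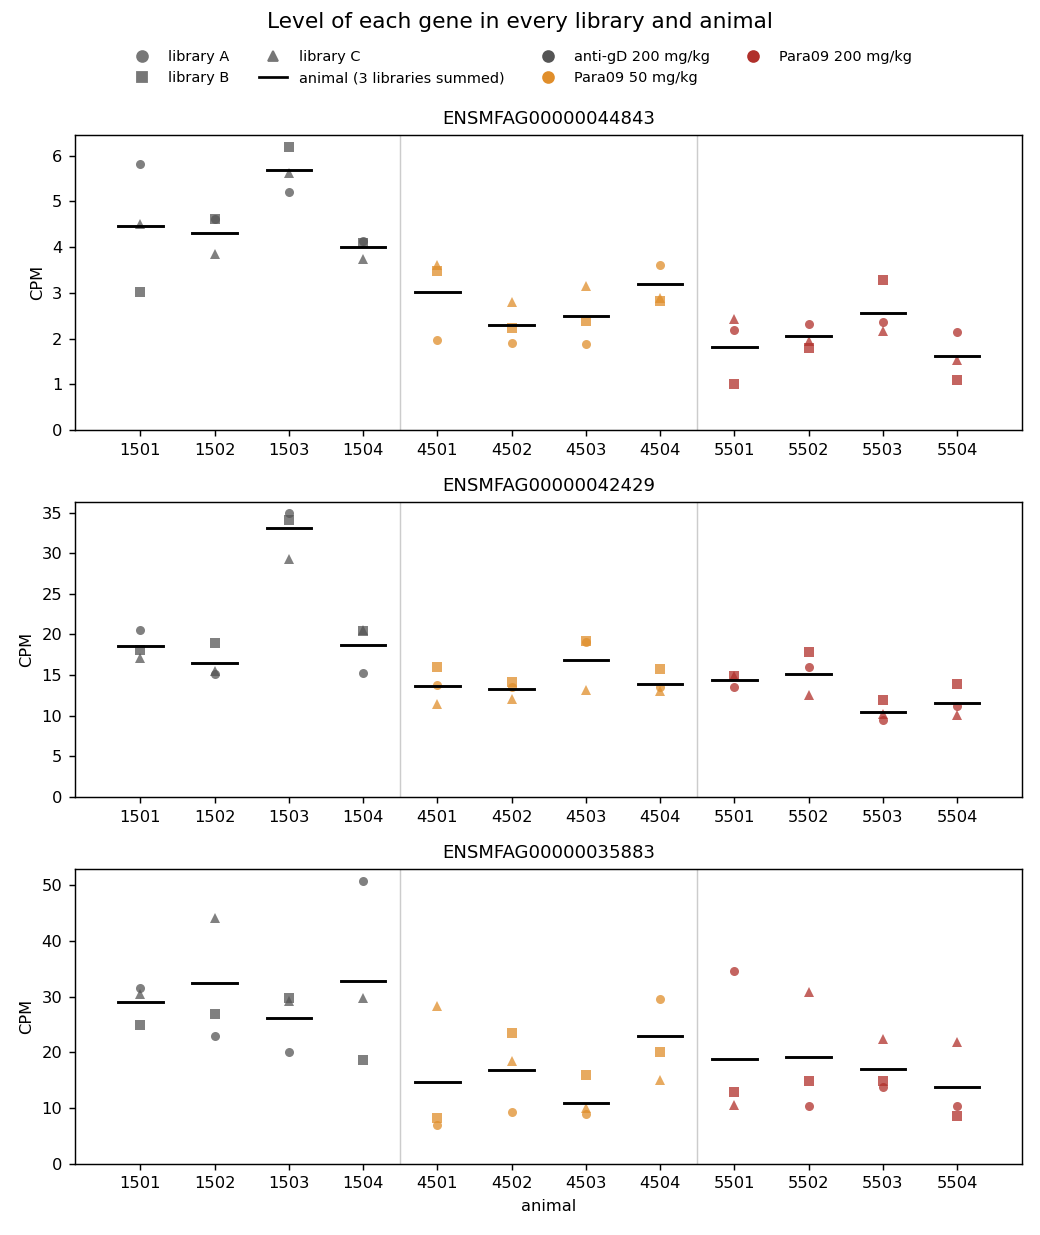
Level of each gene (y axis, CPM, starting at 0) in the 12 animals (x axis), with a point for each library A, B or C and a black line for the animal's 3 libraries summed. The lines of ENSMFAG00000044843 step down from 4.01 to 5.68 CPM in controls to 1.62 to 2.56 CPM at 200 mg/kg, control animal 1503 stands alone for ENSMFAG00000042429, and the libraries of an animal scatter widely for ENSMFAG00000035883.

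These arrangements have to be read against all genes. Among the 17360 genes tested, 0.305% had all animals of both doses below all controls, as ENSMFAG00000044843 and ENSMFAG00000035883 did. For a single dose the share of genes without overlap was 1.91% with the lower dose and 0.95% with the higher. The rule chose the members on these contrasts, so nothing is read from that. All 3 members had a negative log2 fold change at both doses, as did 32.7% of genes, with 49.7% negative with the lower dose and 49.6% with the higher. At an edgeR adjusted p under 0.05 the share called was 0% in each of the 3 comparisons, the members included. An unadjusted p under 0.05 was found for 5.74% of genes (996) with the lower dose and 3.98% (691) with the higher, and 3.64% and 1.6% had it and were lower. At both doses together 0.789% had it and were lower. DESeq2 called 9 and 14 genes at an adjusted p under 0.05, and a library-level limma voom model called 0 and 17. The median log2 fold change of the 3 genes was -0.73 with the lower dose and -0.81 with the higher, beside 0.00 for all genes tested at each dose. Both comparisons share the 4 control animals.

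The step from 50 to 200 mg/kg was not itself part of the rule, although the same treated animals enter it. For ENSMFAG00000044843 the log2 fold change of 200 over 50 mg/kg was -0.46 (SE 0.19, 95% interval -0.88 to -0.04), with an edgeR adjusted p of 0.961. The exact two-sided permutation test of its 4 animals against 4 gave p = 0.0571, or 0.171 adjusted over the 3 genes, where 0.0286 is the smallest p the design allows. ENSMFAG00000042429 differed by -0.17 (SE 0.21, 95% interval -0.63 to 0.29; edgeR adjusted p = 0.961; exact permutation p = 0.257, adjusted 0.386). ENSMFAG00000035883 differed by 0.06 (SE 0.19, 95% interval -0.36 to 0.48; edgeR adjusted p = 0.975; exact permutation p = 0.771, adjusted 0.771). None passed either test after adjustment. Of all genes 47.1% had a negative step, and in 1.27% all animals at 200 mg/kg lay below all at 50 mg/kg, which held for none of the 3. The share of all genes at an edgeR unadjusted p under 0.05 for this step was 2.54% (441 genes), ENSMFAG00000044843 among them (edgeR unadjusted p = 0.0336). At an adjusted p under 0.05 edgeR called 0%, DESeq2 0 genes and limma voom 3. For ENSMFAG00000035883 the interval leaves room for the level at 200 mg/kg to be 78.1% to 139% of that at 50 mg/kg.

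Whether the steps differ between genes was tested on ratios of an animal's summed counts. These do not depend on the scaling of animals, although deeper libraries weigh more in the sums. ENSMFAG00000044843 relative to ENSMFAG00000035883 stood at 0.205, 0.137, 0.226 and 0.140 in animals 4501 to 4504 and at 0.0968, 0.107, 0.151 and 0.118 in animals 5501 to 5504. Only animal 5503 reached into the range of the lower dose. The mean log2 ratio differed by -0.56 (exact two-sided permutation p = 0.0857, 0.257 adjusted over 3 ratios). The ratio of ENSMFAG00000044843 to ENSMFAG00000042429 differed by -0.28 (exact permutation p = 0.314, adjusted 0.457), and that of ENSMFAG00000042429 to ENSMFAG00000035883 also by -0.28 (exact permutation p = 0.457, adjusted 0.457). Unlike dose steps were thus not shown for any pair.

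The steps also depended on which library was read. For ENSMFAG00000044843 the A libraries averaged 2.34 CPM ± 0.839 at 50 mg/kg and 2.25 CPM ± 0.109 at 200 mg/kg, nearly level. The C libraries averaged 3.11 CPM ± 0.365 and 2.01 CPM ± 0.381 (SD, n = 4 animals each). In log2 terms the difference from anti-gD at 50 mg/kg was -1.12 in letter A, -0.68 in letter B and -0.44 in letter C, whereas at 200 mg/kg it was -1.20, -1.32 and -1.12. ENSMFAG00000042429 was steadier, with -0.57, -0.45 and -0.66 at 50 mg/kg and -0.85, -0.64 and -0.77 at 200 mg/kg. ENSMFAG00000035883 had -1.23, -0.52 and -0.84 at 50 mg/kg and -0.93, -0.96 and -0.62 at 200 mg/kg, so its dose order in letter B was the opposite of that in letters A and C. All 18 of these differences from anti-gD were negative. The rule used these same animals, so the shared sign is no separate support. The share of all genes with it is not given here. Within the second series alone (10 animals) the log2 fold changes at 50 and 200 mg/kg were -0.85 and -1.27 for ENSMFAG00000044843, -0.70 and -0.96 for ENSMFAG00000042429, and -0.90 and -0.76 for ENSMFAG00000035883.

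**Figure D2:**
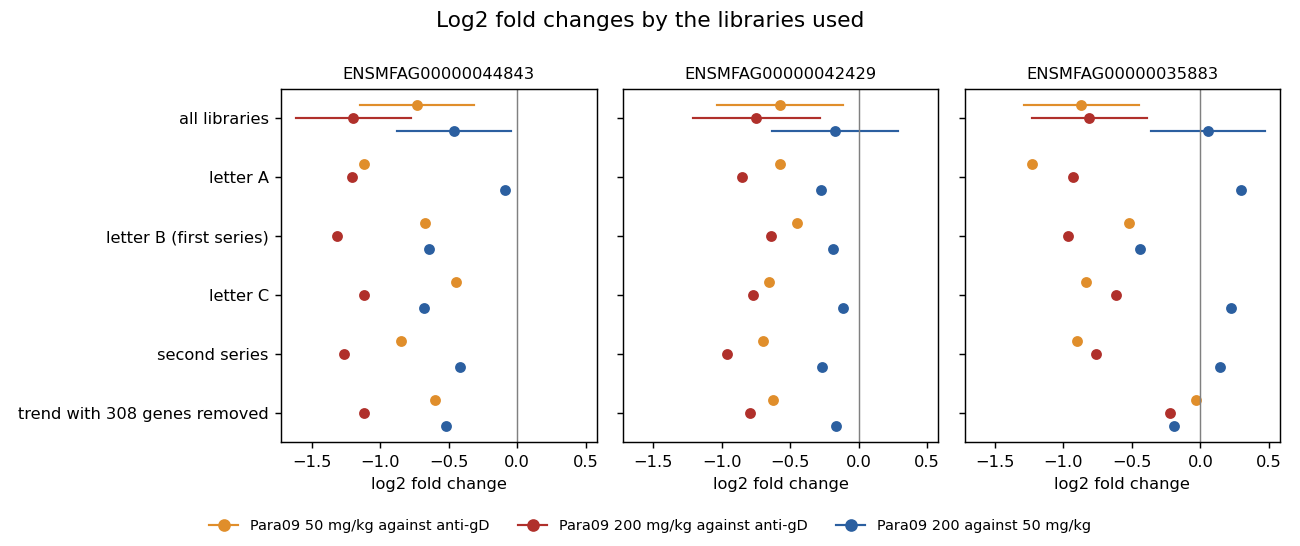
Log2 fold change (x axis) of each gene in the 3 comparisons, by the libraries used (y axis). Bars are 95% intervals of the edgeR fit on all libraries, and the lowest row removes the trend with the 308 genes that follow ENSMFAG00000035883 between libraries. The lowest row is on another measure, the difference of mean log2 CPM, which before removal was -0.90 and -0.83 for ENSMFAG00000035883 at 50 and 200 mg/kg. That removal takes ENSMFAG00000035883 to -0.03 and -0.22 and leaves the other 2 genes at -0.60 or lower at both doses. The 308 genes were chosen for following ENSMFAG00000035883 in these same libraries, so this contrast between genes is no test.

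The 3 genes were next compared animal by animal, after each group's mean was removed so that the difference they were picked for could not enter. ENSMFAG00000044843 and ENSMFAG00000042429 had Pearson's r = 0.25 over the 12 animals (exact permutation within groups p = 0.476, Spearman's rho = 0.16, exact p = 0.635). Without animals 1503 and 5503, the farthest from the median, r was 0.15. Without animal 1503 alone it was -0.32, and without animal 5503 alone it was 0.60. ENSMFAG00000044843 and ENSMFAG00000035883 had r = 0.19 (exact permutation p = 0.580, rho = 0.15, exact p = 0.670), or 0.46 without animals 1503 and 5503. It was -0.07 without animal 4504, 0.03 without animal 5504, 0.10 without animal 4503 and 0.38 without animal 1503. ENSMFAG00000042429 and ENSMFAG00000035883 had r = -0.30 (exact permutation p = 0.230, rho = -0.10, exact p = 0.750), or -0.40 without animals 1503 and 5502. It was -0.16 without animal 1503 and -0.10 without animal 4503. Adjusted over the 3 pairs, every p for r was 0.580 and every p for rho 0.750. Animals on the same side of their group mean for both genes numbered 7, 6 and 5 of 12. Apart from the group difference, a joint movement of the 3 genes across animals was therefore not detectable with 12 animals.

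**Figure D3:**
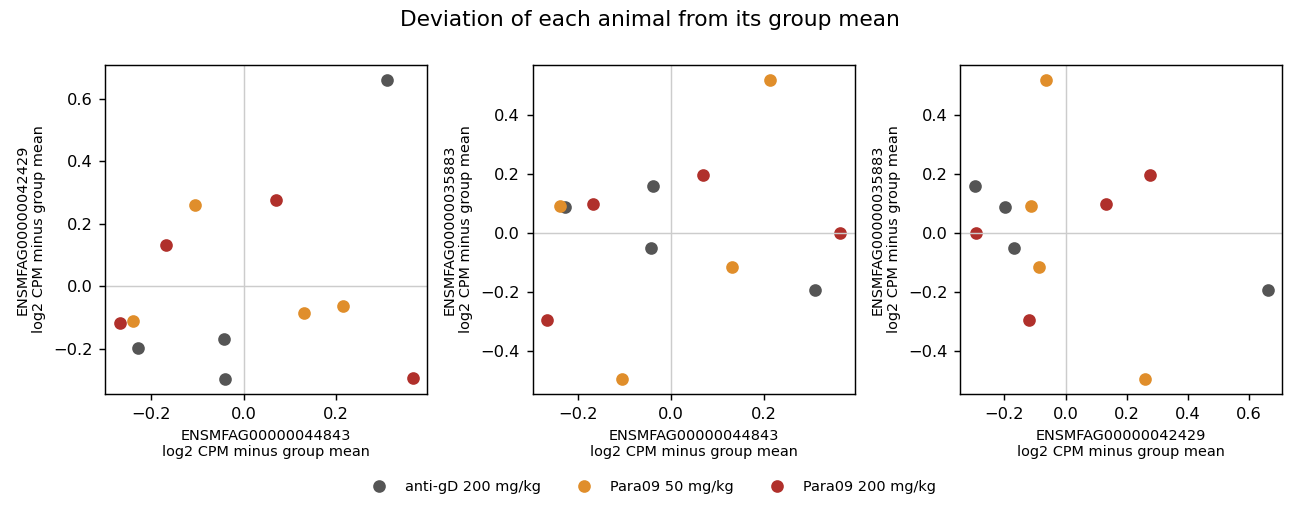
Deviation of each animal's log2 CPM from its group mean, for the 3 pairs of genes, with points coloured by group. The points scatter over all quadrants, and the correlations are 0.25, 0.19 and -0.30 from left to right.

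The spread inside an animal set the genes apart more than the spread between animals. Between animals of a group the SD of log2 CPM was 0.24 for ENSMFAG00000044843, 0.31 for ENSMFAG00000042429 and 0.29 for ENSMFAG00000035883. Between libraries of an animal it was 0.37, 0.20 and 0.66. Set against counting noise, libraries of an animal varied 3.44, 6.09 and 92.7 times as much as counting alone gives (chi-square per degree of freedom). In animal 4501 ENSMFAG00000035883 went from 6.92 CPM in letter A to 28.3 CPM in letter C, and in animal 5501 from 34.6 CPM in letter A to 10.6 CPM in letter C. The SD of its A minus C difference over the 12 animals, 1.11 on the log2 scale, was larger than that of 97.9% of 2548 genes of like level. For ENSMFAG00000044843 (0.47) and ENSMFAG00000042429 (0.23) the corresponding shares were 45.0% and 24.3%.

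ENSMFAG00000035883 shared this movement between libraries with other genes. With each animal's and each series' mean removed, 308 of 14644 other genes averaging 1 CPM or more followed it with r above 0.8 over the 36 libraries. The median gene had 50 such partners, and 75.1% of genes had fewer than ENSMFAG00000035883, so a number this high was not rare. ENSMFAG00000044843 and ENSMFAG00000042429 had 0. Their libraries varied only 3.44 and 6.09 times as much as counting alone gives, beside 92.7 for ENSMFAG00000035883. Counting noise therefore limits the r that these 2 genes can reach more strongly. The share of all genes with 0 is not given here. These 308 genes were picked after the values were seen, and for following a gene that was itself chosen as lower at both doses, so their direction is no independent evidence. Their summed level was 18052 CPM ± 2383 with anti-gD, 12782 CPM ± 3000 with the lower dose and 14192 CPM ± 2734 with the higher (SD, n = 4 animals). Animal 4504, at 16908 CPM, and animal 5501, at 17916 CPM, lay within the control range of 16219 to 21391 CPM. All 308 had a lower fitted level than control at both doses, as did 32.7% of all genes tested. They were chosen for moving with the same gene, so they do not count as 308 separate cases. Their median log2 fold change was -0.59 with the lower dose and -0.47 with the higher.

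Library values are given as a description, since the genes were picked for following in these same libraries. Summed over the 308 genes, animal 4501 had 7089, 10381 and 17146 CPM in letters A, B and C, beside 6.92, 8.16 and 28.3 CPM of ENSMFAG00000035883. Control animal 1504 had 25655, 17711 and 21154 CPM, beside 50.7, 18.7 and 29.7 CPM. Inside animals, ENSMFAG00000035883 changed by 1.69 log2 units for each log2 unit of the sum (r = 0.93), a closeness that the choice of the 308 genes fixes. When that trend was removed from the animals' levels, its log2 difference from anti-gD went from -0.90 to -0.03 at 50 mg/kg and from -0.83 to -0.22 at 200 mg/kg. The same removal left ENSMFAG00000044843 at -0.60 and -1.12, from -0.72 and -1.20, since its trend was 0.23 log2 units for each log2 unit (r = 0.24). ENSMFAG00000042429 leaned the other way (-0.21 log2 units, r = -0.48) and went from -0.52 to -0.62 and from -0.72 to -0.79. The removal rests on a slope from the same libraries that chose the 308 genes and is no test. What these genes represent was not tested.

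**Figure D4:**
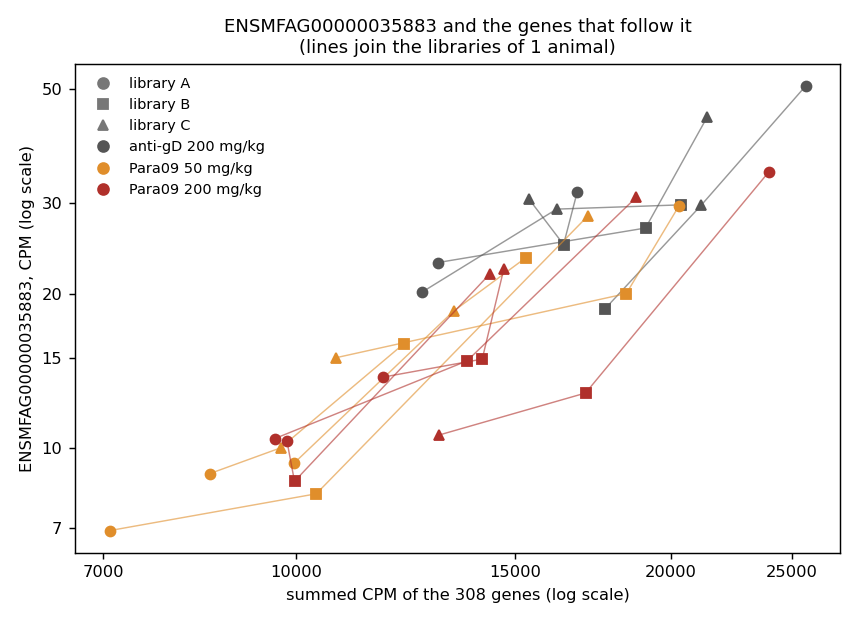
Level of ENSMFAG00000035883 (y axis, CPM, log scale) against the summed CPM of the 308 genes that follow it (x axis, log scale) in 36 libraries, with lines joining the libraries of an animal. The lowest library has 6.92 CPM at a sum of 7089 and the highest 50.7 CPM at a sum of 25655. Control animal 1501, whose sums span little, and animal 5504 at 200 mg/kg do not rise steadily along their lines.

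Differences between letters and series were tested too, since the rule did not use them. In the 10 animals with libraries in both series, ENSMFAG00000042429 was lower in the second series (letters A and C) than in the first (letter B) in 9 of 10 animals, with means of 15.6 and 18.0 CPM. The log2 difference was -0.23 ± 0.17 (SD, n = 10; exact sign-flip permutation p = 0.00586, 0.0176 adjusted over 3 genes). How many of all genes pass this test is not given here, so the difference is not shown to be particular to ENSMFAG00000042429. Series and letter B cannot be told apart in these animals. The library-level limma voom model with both terms gave -0.03 (SE 0.17, adjusted p = 0.908) for the series of ENSMFAG00000042429. That model called 28.2% of genes for the series. Without the letter term it gave -0.21 (voom adjusted p = 0.0459), and the share of all genes called that way is not given here. With both terms, only the A and C libraries of animals 1504 and 5501 separate series from letter. The -0.03 therefore does not assign the difference to the letter. ENSMFAG00000044843 and ENSMFAG00000035883 differed by 0.08 ± 0.42 and 0.09 ± 0.58 (SD, n = 10; exact permutation p = 0.545 and 0.621, adjusted 0.621 for each). Between letters A and C, the log2 difference was -0.02 ± 0.47, 0.13 ± 0.23 and -0.35 ± 1.11 for ENSMFAG00000044843, ENSMFAG00000042429 and ENSMFAG00000035883 (SD, n = 12). The exact sign-flip permutation p was 0.881, 0.0879 and 0.288 (adjusted 0.881, 0.264 and 0.431), so no constant offset between these letters was shown for any of the 3.

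The gene most like each member was sought among the same 14644 genes, by Pearson's r over the 12 animals with group means removed. These are the highest of many correlations and are given as a description. For ENSMFAG00000035883 it was ENSMFAG00000033410, with r = 0.96. Over the 36 libraries with no mean removed r was 0.93, which includes the group difference that chose the member. ENSMFAG00000033410 had log2 fold changes of -1.05 with the lower dose and -1.003 with the higher. For ENSMFAG00000044843 it was ENSMFAG00000035643 (r = 0.91), whose r over the 36 libraries was -0.04 and whose log2 fold changes were 0.28 and 0.24. For ENSMFAG00000042429 it was ENSMFAG00000040102 (r = 0.87, or 0.38 over the 36 libraries), with log2 fold changes of 0.10 and -0.11. Over the 12 animals ENSMFAG00000044843 had 6 partners with r above 0.8 and ENSMFAG00000042429 had 5, where the median gene had 278 and ENSMFAG00000035883 had 273.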

How the data were processed

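The authors deposited, for each of 36 libraries, whole-number read counts, an exonic width and an RPKM per gene, per the file headers. The submitters' processing notes name GSNAP. The genome build, annotation, strand and treatment of multiply matching reads were not found in the labels or headers, so overlapping or near-identical genes may have exchanged counts. The deposited RPKM rest on a total of which the counts made up a mean of 57.1% in the first and 59.5% in the second series.

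The animal is the replicate, so its 3 libraries were added up, and all 12 animals entered a single edgeR 4.0.16 fit (R 4.3.3) by the quasi-likelihood method, with TMM factors, filterByExpr (17360 genes kept) and Benjamini-Hochberg adjustment. Standard errors were derived from F. Log2 CPM used a prior count of 2, and ratios added 0.5 to each count. The series was tested with limma 3.58.1 (voom, 15928 genes, series, letter and group as terms, animal as a random block). DESeq2 1.42.0 was an alternative. Exact permutation tests were two-sided. The scripts were tested on simulated data. The members, lists and tests were chosen with earlier results of these data known. Named genes are the 3 members and, for each, the gene with the highest group-centred r among those with a mean of at least 1 CPM. Gene lists and marker lists could not be applied without gene names. No sequences are shown, because the identifiers could not be matched to a reference.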

Additional observations from a re-analysis of the deposited data

Results flagged for a closer look

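Control animal 1503 had 33.1 CPM of ENSMFAG00000042429, and the other 3 control animals had 16.5 to 18.7 CPM. Its distance to the next animal was 86.4% of the range of its group, past the limit of 82.9% for 4 samples. Of 9 groups of 4 animals examined for the 3 genes, 1 had such a value, and chance gives about 1 in 20 groups.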

How the results depend on the processing

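The log2 fold changes against anti-gD kept their sign for all 3 genes under every alternative run. Each run reused animals that the rule had used. Leaving out each animal gave -1.33 to -1.09 (ENSMFAG00000044843), -0.86 to -0.48 (ENSMFAG00000042429) and -0.88 to -0.73 (ENSMFAG00000035883) with the higher dose, and -0.81 to -0.62, -0.67 to -0.30 and -1.07 to -0.72 with the lower. Values moved by more than the spread between animals at 50 mg/kg in letter A (-1.12 for ENSMFAG00000044843, -1.23 for ENSMFAG00000035883), letter B (-0.52 for ENSMFAG00000035883) and letter C (-0.44 for ENSMFAG00000044843); the cause was not tested. Removing the trend with the 308 genes was an alternative chosen after seeing the data, on differences of mean log2 CPM. It gave ENSMFAG00000035883 -0.22 with the higher dose, -0.0316 with the lower and -0.19 between the doses. Its dose step also turned to -0.44 in letter B, -0.0938 without animal 4503 and -0.02 without animal 5502 (range over animals left out -0.0938 to 0.25). Leaving out library 5501B, or animals 1504 and 5501, also chosen after seeing the data, turned no sign.

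edgeR called 0 genes under every edgeR alternative. DESeq2 called 14 with the higher dose and 9 with the lower, and limma voom 17 at 200 mg/kg and 3 between the doses. The ratio of ENSMFAG00000042429 to ENSMFAG00000035883 turned to 0.17 in letter B, as did their r, to 0.10. With each animal left out, the r of ENSMFAG00000044843 ranged from -0.32 (without 1503) to 0.601 (without 5503) with ENSMFAG00000042429 and from -0.0720 (without 4504) to 0.380 (without 1503) with ENSMFAG00000035883. With RLE factors the voom series difference turned from -0.01 to 0.0378 for ENSMFAG00000044843 and from -0.03 to 0.0150 for ENSMFAG00000042429. Without the letter term it was 0.12, -0.21 and 0.0495 for ENSMFAG00000044843, ENSMFAG00000042429 and ENSMFAG00000035883, and without the filter 0.11 and 0.0670 for the first 2. Counts as low as 21 limit single-library values of ENSMFAG00000044843.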
